A study of Mus musculus with 8 samples.

Results

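Wild-type-only CTCF sites that carry Smc3 were 1082 of the 98759 CTCF peaks of wild-type (WT) JM8.N4 mouse embryonic stem cells. They were chosen by position: a WT CTCF peak on a numbered autosome that shared no base with a CTCF peak of the C59 line and at least 1 bp with a WT Smc3 peak. C59 is a single clone derived from the same cells, in which every copy of CTCF carries FLAG and Halo tags and every copy of Rad21 carries SNAPf and V5 tags. WT cells carry no tag. Both lines were grown feeder free in serum with LIF and fixed with formaldehyde, and chromatin immunoprecipitation and sequencing (ChIP-seq) gave 1 CTCF and 1 Smc3 peak list from each. Every comparison between the lines therefore rests on single libraries, with no replicate check and no test.

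CTCF is a zinc finger protein that recognises a long DNA motif at insulators and at the anchors of chromatin loops. Cohesin is a ring built on Smc1a, Smc3 and Rad21 that extrudes loops and holds sister chromatids together, and it is found mostly where CTCF has stopped it. In embryonic stem cells the paired presence of CTCF and cohesin marks boundaries of topological domains. Cohesin is also loaded and found away from CTCF, at active promoters among other places.

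Of 96324 autosomal WT CTCF peaks, 20.1% had no C59 CTCF peak and 44.4% had a WT Smc3 peak. The 1082 sites meet both conditions and were 1.12% of the autosomal peaks. Among peaks with WT Smc3, 2.53% lacked C59 CTCF, against 34.2% of peaks without WT Smc3. Read the other way, 5.58% of the 19386 WT-only CTCF peaks had Smc3. These shares follow from the choice of sites and are descriptions. The sites are compared below with 18304 WT-only CTCF peaks without Smc3, 41703 CTCF peaks of both lines with WT Smc3, and 35235 CTCF peaks of both lines without it.

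Promoters are shown first, because they are the sites whose sequence could be read. RefSeq promoters of the mouse build GRCm38.p6, taken from 250 bases before to 50 bases after an annotated start, held 40 of the site summits at 44 starts of 42 genes. The 6 with the highest WT CTCF fold are given below as the 250 bases before the start, 5′ to 3′ on the strand of the gene. Capitals mark matches on either strand to a short form of the CTCF core motif, of 12 positions with 7 fixed. A match is a run of letters and not a measured contact.
Dll1 (chr17:15376933-15377182, minus strand): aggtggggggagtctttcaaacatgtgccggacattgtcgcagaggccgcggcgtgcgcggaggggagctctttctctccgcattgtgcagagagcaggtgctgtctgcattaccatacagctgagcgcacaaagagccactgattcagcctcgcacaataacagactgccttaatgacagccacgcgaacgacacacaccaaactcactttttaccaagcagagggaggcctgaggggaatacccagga
Mmp14 (chr14:54431348-54431597, plus strand): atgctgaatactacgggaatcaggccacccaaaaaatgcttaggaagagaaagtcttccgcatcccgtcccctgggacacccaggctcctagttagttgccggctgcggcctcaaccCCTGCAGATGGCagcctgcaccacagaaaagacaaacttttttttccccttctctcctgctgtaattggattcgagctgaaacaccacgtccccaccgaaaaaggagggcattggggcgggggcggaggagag
Crispld2 (chr8:119992188-119992437, plus strand): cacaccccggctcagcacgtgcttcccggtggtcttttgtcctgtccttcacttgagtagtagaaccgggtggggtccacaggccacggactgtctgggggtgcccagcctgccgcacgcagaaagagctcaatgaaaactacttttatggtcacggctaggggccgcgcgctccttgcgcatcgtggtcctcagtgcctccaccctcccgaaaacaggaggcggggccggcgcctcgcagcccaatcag
Gm16973 (chr14:56701001-56701250, minus strand): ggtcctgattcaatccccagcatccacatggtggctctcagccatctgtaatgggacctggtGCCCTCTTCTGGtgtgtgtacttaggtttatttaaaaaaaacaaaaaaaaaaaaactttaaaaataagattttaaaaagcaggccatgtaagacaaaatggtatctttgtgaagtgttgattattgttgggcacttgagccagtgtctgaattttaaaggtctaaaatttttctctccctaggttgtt
Cachd1 (chr4:100776429-100776678, plus strand): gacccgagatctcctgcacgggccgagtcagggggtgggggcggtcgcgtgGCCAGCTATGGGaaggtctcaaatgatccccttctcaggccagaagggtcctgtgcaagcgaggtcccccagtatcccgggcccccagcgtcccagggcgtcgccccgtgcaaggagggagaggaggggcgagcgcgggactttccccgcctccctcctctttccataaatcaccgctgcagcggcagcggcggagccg
Sdhd (chr9:50603850-50604099, minus strand): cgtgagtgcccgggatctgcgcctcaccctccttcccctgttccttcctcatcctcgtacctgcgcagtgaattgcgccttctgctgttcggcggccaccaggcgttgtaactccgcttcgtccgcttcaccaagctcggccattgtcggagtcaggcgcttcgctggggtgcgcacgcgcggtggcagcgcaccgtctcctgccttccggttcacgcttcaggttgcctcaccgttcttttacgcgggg

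Dll1, a ligand of Notch receptors, had the strongest of these peaks, with a WT CTCF fold of 10.4 and a WT Smc3 fold of 8.53. Fold is the authors' enrichment of the summit over its local background. The summit at Dll1 lay 176 bases before the start, and no match stood in the window. Mmp14, a membrane-bound matrix metalloproteinase, had a CTCF fold of 9.11 and a Smc3 fold of 3.78. Its match began 133 bases before the start and its CTCF summit lay 122 bases before it, so the letters and the summit coincide there. The match of Gm16973 began 188 bases before the start, on the opposite strand, with the CTCF summit 215 bases before it. In Cachd1, which encodes a modulator of calcium channels, the match began 199 bases before the start, whereas the summit lay 4 bases beyond the start. Crispld2, which encodes a secreted protein, and Sdhd, a membrane anchor of succinate dehydrogenase, had CTCF folds of 7.29 and 6.27 and no match.

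Over all 84 promoter windows touched by a site, 13 held the motif, which is 15.5% (95% exact binomial interval 8.51 to 25). The share was 15.9% at WT-only CTCF peaks without Smc3, 25.8% at peaks of both lines with WT Smc3 and 18.6% at peaks of both lines without it. Of all 31365 autosomal promoters of the same length in the table, 8.73% held the same letters. Where the window had to hold the summit itself, 8 of 44 had the motif, or 18.2% (8.19 to 32.7), against 444 of 990, or 44.8% (41.7 to 48.0), at peaks of both lines with Smc3. The share in summit windows was 20.5% (16.5 to 25) at WT-only peaks without Smc3 and 26.6% (23.6 to 29.7) at peaks of both lines without it. These shares count windows and not sites, and windows can overlap. The 44 summit windows at the sites held 40 different summits. At Aldoa the same summit and the same match were counted in overlapping windows. The intervals treat windows as independent, which windows that share a summit are not. Median GC content of the summit windows was 61.5% at the sites and 59% at peaks of both lines with Smc3. Over all promoters it was 53.0%. The fixed letters of the motif are mostly G and C, and the 8.73% over all promoters was not matched for GC content. A longer form of the core, of 15 positions with 8 fixed, contains the shorter one. It stood in 10.7% of the touched windows at the sites and in 9.66% of those at peaks of both lines with Smc3. In summit windows it stood in 15.9% (6.64 to 30.1) at the sites and 17.3% (15.0 to 19.8) at peaks of both lines with Smc3, so the difference seen with the shorter form was not seen with the longer one. Promoters are a small part of the sites, and sequence elsewhere was not analysed here.

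The sites had weak CTCF peaks. The lowest WT CTCF fold was 2.03, the median 5.03 and the highest 14.1. Medians were 4.11 at WT-only peaks without Smc3, 21.5 at peaks of both lines with Smc3 and 7.17 at peaks of both lines without Smc3. The sites thus sat above other WT-only peaks and far below the shared sites with cohesin. This order is a description, since the same peak lists defined the classes. The summit pileup, the number of fragments stacked on the summit, had a median of 29.0 at the sites, 24.0 at WT-only peaks without Smc3, 151 at peaks of both lines with Smc3 and 43.0 at peaks of both lines without it. The median peak was 388 bp long at the sites, against 316 bp at WT-only peaks without Smc3 and 813 bp at peaks of both lines with Smc3. When all autosomal WT CTCF peaks were split into 10 deciles of fold, 96.9% of the sites fell in deciles 1 to 5, the weaker part of the list. Only 32 of the 1082 had a fold above the median of all autosomal peaks. With weak peaks on the WT side and a C59 CTCF list of 80258 autosomal peaks against 96324 in WT, a missing C59 peak says that none was called, not that CTCF was absent.

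**Figure D1:**
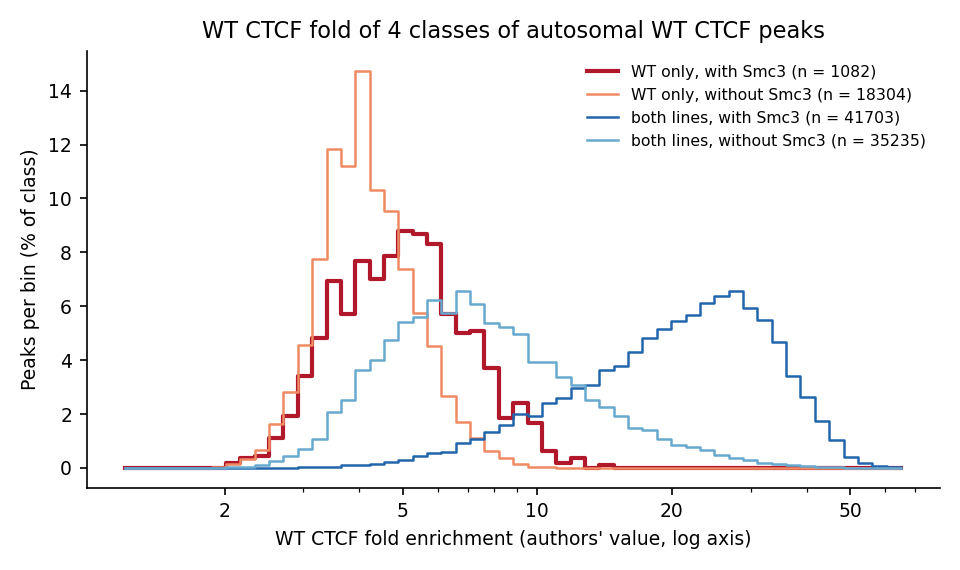
Distribution of the authors' WT CTCF fold (log axis) in the 4 classes of autosomal WT CTCF peaks, as percent of each class per bin. The WT-only sites with Smc3 have a median of 5.03, between the 4.11 of WT-only peaks without Smc3 and the 21.5 of peaks of both lines with Smc3.

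The share of WT-only peaks with a WT Smc3 peak, from which the sites come, was set beside that of peaks of both lines at like CTCF fold. In decile 3 of CTCF fold, 6.51% of WT-only peaks and 6.78% of peaks of both lines had a WT Smc3 peak. In decile 4 the shares were 11.6% of WT-only peaks and 12.1% of peaks of both lines, and in decile 5 they were 26.7% of WT-only peaks and 25.3% of peaks of both lines. In decile 6 they were 60.0% of only 55 WT-only peaks and 45.0% of peaks of both lines. All of these shares come from values that chose the sites.

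The 10 sites with the highest CTCF fold ranged from 10.5 to 14.1. The strongest lay inside Pde4c, a phosphodiesterase of cyclic AMP, at 70725815 to 70726361 on chromosome 8, with a CTCF fold of 14.1 and a Smc3 fold of 6.71. A site inside Etv6, an ETS family repressor, had a CTCF fold of 12.7 and a Smc3 fold of 3.60, with the summits 5 bp apart. The site inside Rmnd1, which acts in mitochondrial translation, had a CTCF fold of 12.4 and a Smc3 fold of 5.74. Over the 10, the Smc3 fold ran from 3.60 to 6.71, and 9 of them lay above the median of 3.75 over all 1082 sites. The site inside Alpl, tissue-nonspecific alkaline phosphatase and a classic stain of pluripotent cells, had a CTCF fold of 12.2 and a Smc3 fold of 6.39. A site 36259 bp from an end of Plb1, a phospholipase, also had a CTCF fold of 12.2, with a Smc3 fold of 4.24. The site inside Vav2 had a CTCF fold of 10.6, a Smc3 fold of 6.59 and summits 4 bp apart. The other 4 lay nearest to an end of Snx10, Rad51b, Pp2d1 and Pwwp2b. None of these 10 had a C59 Smc3 peak, and each was alone on its Smc3 peak.

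The Smc3 peaks at the sites were weak as well. Their WT Smc3 fold had a lowest value of 2.00, a median of 3.75 and a highest value of 28.7, against a median of 6.20 at peaks of both lines. The median Smc3 pileup was 21.0 at the sites and 41.0 at peaks of both lines. In deciles of Smc3 fold, 90.0% of the sites fell in deciles 1 to 4. These values too are descriptions, since the WT Smc3 list was used to choose the sites. The median distance between the CTCF and Smc3 summits was 59.5 bp at the sites and 26.0 bp at peaks of both lines. Summits lay within 100 bp of each other at 69.5% of the sites (66.7 to 72.2) and at 92.8% of peaks of both lines (92.6 to 93.1).

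A few of these Smc3 peaks belonged to more than 1 CTCF peak. At 38 of the 1082 sites the Smc3 peak also touched another WT CTCF peak. All 38 neighbours had a higher CTCF fold than the site, with a median of 25.9, and all 38 were found in C59. The Smc3 summit lay nearer to the neighbour in 32 of the 38. The Smc3 fold had a median of 9.50 at these sites and 3.71 at the 1044 sites alone on their Smc3 peak.

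**Figure D2:**
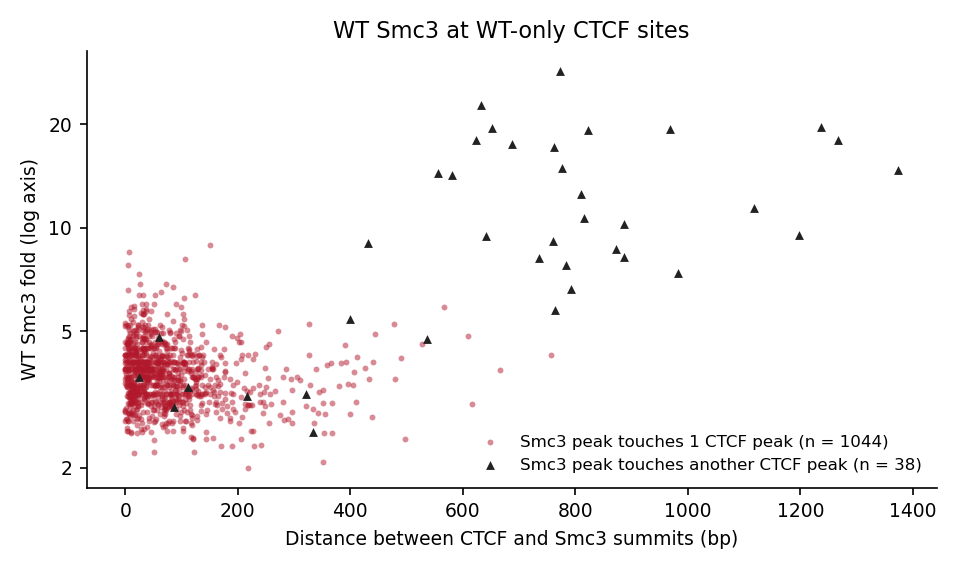
WT Smc3 fold (log axis) against the distance in bp between the CTCF and Smc3 summits, 1 point per site. Triangles are the 38 sites whose Smc3 peak touches another WT CTCF peak, with a median fold of 9.50 and a median distance of 762 bp, and circles the 1044 others, with medians of 3.71 and 57.0 bp.

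The 10 sites with the highest Smc3 fold, from 17.2 to 28.7, were all of this shared kind. The highest lay 5405 bp from an end of Ncoa2, a nuclear receptor coactivator, and within 10 kb of Prdm14, a pluripotency factor, with a CTCF fold of 3.7 and a Smc3 fold of 28.7. Its summits were 772 bp apart. The site nearest to Zbp1, a sensor of Z-form nucleic acids, had a CTCF fold of 3.11 and a Smc3 fold of 22.8. The site 153 bp from an end of Dlx3, a homeobox factor, had a CTCF fold of 3.29 and a Smc3 fold of 19.6. High Smc3 thus stood beside weak CTCF at these sites, with the summits 623 bp or more apart. The others lay nearest to Ldb3, Neurl1b, Vegfa, Skida1, Fcgr2b, Ireb2 and Gm36722.

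C59 CTCF was often close by although it did not touch. The median distance from a site to the nearest C59 CTCF peak was 3100 bp, against 4894 bp at WT-only peaks without Smc3. A C59 CTCF peak lay within 500 bp of 152 sites, within 2000 bp of 412 and within 10000 bp of 812. At 151 of those 152 the C59 peak also overlapped another WT CTCF peak, so it was a neighbour that both lines share. The farthest site, 500514 bp from any C59 CTCF peak, was nearest to Pcdh7, a protocadherin, with a CTCF fold of 9.31 and both summits at the same base. Sites near Trps1, a GATA-type repressor, and Socs6, a suppressor of cytokine signalling, followed at 324048 and 309955 bp.

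Some peaks fell just inside or just outside the choice. The smallest overlaps with Smc3 were 4 bp near Btg2, 4 bp inside Setdb1 and 13 bp inside Cnga3, with CTCF folds of 4.08, 2.81 and 3.37. Just outside, WT-only peaks nearest to Brd1, Klf9 and Tfrc missed a Smc3 peak by 6, 8 and 9 bp, with CTCF folds of 3.69, 2.80 and 3.06. The smallest gaps to a C59 CTCF peak were 7 bp at the site nearest to Casr, 12 bp at that nearest to Foxo1 and 58 bp at that inside Ube2h, with CTCF folds of 3.99, 3.51 and 3.49. Peaks with Smc3 nearest to Mb21d2, Nkain1 and Sp7 were left out by an overlap with C59 CTCF of 23, 28 and 45 bp, with CTCF folds of 8.60, 6.84 and 2.90.

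The C59 Smc3 list did not enter the choice. It held 25400 autosomal peaks, against 46349 in the WT Smc3 list. A missing C59 Smc3 peak therefore says that none was called, not that Smc3 was absent. Over all autosomal WT CTCF peaks, 25.2% had a C59 Smc3 peak, and 56.1% of those with WT Smc3 did. Of the 1082 sites, 25 had one, which is 2.31% (1.5 to 3.39). The share was 0.0601% (0.0300 to 0.108) at WT-only peaks without Smc3, 57.5% (57.0 to 58.0) at peaks of both lines with WT Smc3, and 0.715% at peaks of both lines without it. Of all autosomal WT Smc3 peaks, 53.3% had a C59 Smc3 peak. The intervals cover counting error only, and sites of the same library are not independent replicates.

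The comparison was repeated at like fold, since the classes differ in it. Peaks of both lines weighted to the sites' deciles of WT Smc3 fold had C59 Smc3 in 20.4%. Weighted to the deciles of CTCF fold they had it in 7.46%, and weighted to both folds in 7.56%, with 1.2% of sites unmatched. Each of these lies above the 2.31% at the sites and above its upper bound of 3.39. In decile 1 of Smc3 fold, 3 of 351 sites had C59 Smc3, or 0.855% (0.177 to 2.48), against 11.1% (9.97 to 12.4) of peaks of both lines. In decile 4 it was 3 of 128 sites, or 2.34% (0.486 to 6.70), against 29.5% (28.1 to 30.9). In deciles 1 to 3 of CTCF fold, which hold 252, 208 and 244 of the sites, the intervals of the classes overlapped, with 5.16% (2.78 to 8.66) of sites and 8.06% (2.67 to 17.8) of peaks of both lines in decile 1, and 2.05% (0.669 to 4.72) of sites and 4.88% (2.92 to 7.6) of peaks of both lines in decile 3. In deciles 4 and 5 of CTCF fold they did not overlap, with 1 of 220 and 0 of 124 sites against 6.42% and 9.65% of peaks of both lines.

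**Figure D3:**
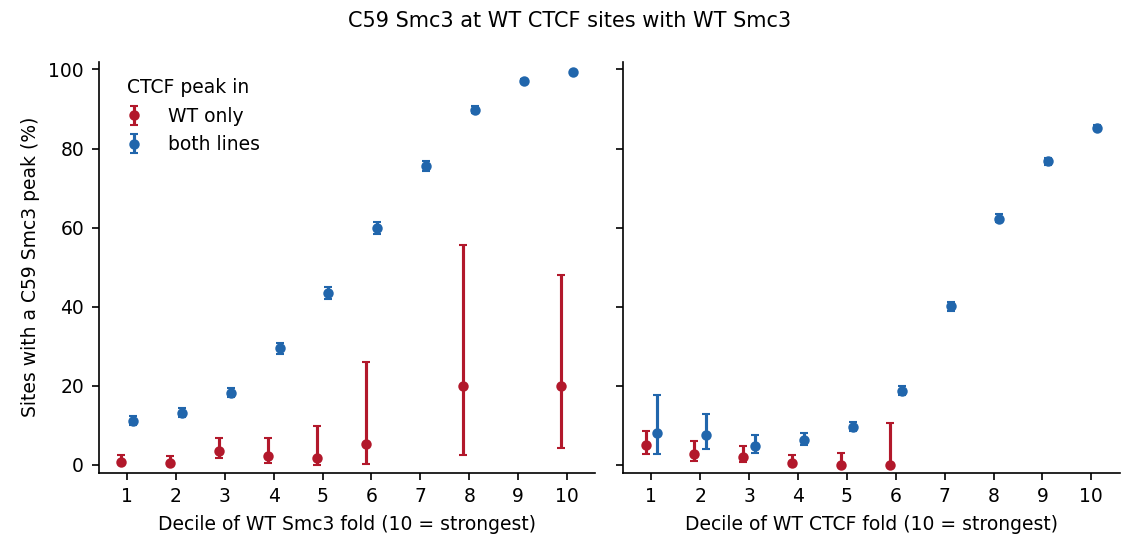
Percent of sites with a C59 Smc3 peak, by decile of WT Smc3 fold (left panel) and of WT CTCF fold (right panel), for WT-only CTCF sites with Smc3 and for CTCF peaks of both lines with WT Smc3. Bars are 95% exact binomial intervals, bins with fewer than 10 sites are not drawn, and in decile 4 of Smc3 fold the shares are 2.34% and 29.5%.

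Where C59 Smc3 was looked for at the WT Smc3 peak and not at the CTCF peak, 51 sites had it, or 4.71% (3.53 to 6.15). The 38 sites that share their Smc3 peak with a neighbour gave 28 of these. Among the 1044 sites alone on their Smc3 peak the share was 23, or 2.20% (1.40 to 3.29), against 18.4% of peaks of both lines weighted to the same deciles of Smc3 fold. Peaks of both lines had 8.29% when weighted to CTCF fold and 7.56% when weighted to both folds. Smc3 peaks of WT that touch no WT CTCF peak had C59 Smc3 in 324 of 2258 cases, or 14.3% (12.9 to 15.9). Weighted to the Smc3 fold of the 1044 sites that share became 19%. The share at the sites thus lay below that at WT Smc3 peaks of like Smc3 fold that touch no WT CTCF peak, within these 4 libraries. Those peaks were not screened for C59 CTCF, whereas the sites were chosen to lack it.

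The 25 sites with C59 Smc3 fell into a small group next to C59 CTCF and a larger group away from it. The C59 Smc3 peak touched a C59 CTCF peak at 5 of them, nearest to Ncoa2, Ptma, Ldb3, Casr and Arap3, and touched none at 20. The highest C59 Smc3 fold, 13.9, lay near Arap3, which encodes a GTPase-activating protein, where the WT Smc3 fold was 4.11 and the WT CTCF fold 5.22. Near Casr, the calcium-sensing receptor, the C59 Smc3 fold was 12.8 and the WT Smc3 fold 14.4. At Ldb3, a protein of the muscle Z-disc, they were 9.30 in C59 and 19.5 in WT. Near Ptma, prothymosin alpha, the C59 Smc3 fold was 7.12 and the WT Smc3 fold 11.4. Near Ncoa2 the C59 Smc3 fold was 8.79 and the WT Smc3 fold 28.7. Of the 5 highest C59 Smc3 folds, those near Arap3, Casr, Ldb3 and Ncoa2 stood where C59 CTCF touched the C59 Smc3 peak. The other, 8.34 at H2ac15, did not.

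Of the 20 with no C59 CTCF at the C59 Smc3 peak, 14 had their CTCF summit within 1 kb of an end of a protein-coding gene. Among them was a site 990 bp from an end of Hspd1, the mitochondrial chaperonin, with a C59 Smc3 fold of 3.37 and a WT Smc3 fold of 3.22. A site 192 bp from an end of Meis2, a homeobox factor, had a C59 Smc3 fold of 4.21 and a WT Smc3 fold of 3.32. A site 137 bp from an end of Ppan, a factor of ribosome assembly, had 6.31 in C59 and 5.89 in WT. Hspd1, Meis2 and Ppan are named to illustrate this group and were picked after their values were seen. Each had the higher fold in C59. Nearest to Ramp3, Cuedc1, Asb6, Sass6 and Dmap1, in the same group, the C59 fold was the lower, as with 3.64 against 5.22 at Ramp3. Fold in C59 was at least that in WT at 13 of the 25, or 52.0%. Among peaks of both lines with Smc3 in both it was so at 16.8%. It was so at 77.7% of those with a WT Smc3 fold up to 4.22, the median of the 25. The 52.0% covers all 25 sites, with WT Smc3 folds up to 28.7, so it and the 77.7% are not at like fold. The lists were scaled separately, so a fold is not comparable between them as a level.

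Histone genes were noticed on inspection of the 25 sites with C59 Smc3, so C59 Smc3 at them partly restates how they were found. The table holds 67 histone genes, and the 4 sites within 1 kb of an end of any of them lay at H2A genes on chromosome 13: H2ac15, H2ac22, H2ac12 and H2ac6. H2A is a core histone, and these genes lie in the large histone gene cluster and are expressed in S phase. At H2ac15 the C59 Smc3 fold was 8.34, the WT Smc3 fold 4.43 and the WT CTCF fold 3.34. At H2ac6 the C59 Smc3 fold was 6.07, the WT Smc3 fold 4.92 and the WT CTCF fold 3.91. H2ac22 and H2ac12 had C59 Smc3 folds of 5.57 and 5.14, WT Smc3 folds of 4.07 and 3.90, and WT CTCF folds of 3.42 and 3.12. All 4 had a C59 Smc3 peak with no C59 CTCF peak touching it. Their CTCF and WT Smc3 summits lay 175 to 393 bp apart, and the peaks overlapped by 62 to 194 bp. Histone gene ends held 4 of the 1082 sites and 2 of 18304 WT-only peaks without Smc3. They held 9 of 41703 peaks of both lines with Smc3 and 4 of 35235 without it. Of the other classes, 7 of 9 peaks of both lines with Smc3 at histone gene ends had C59 Smc3, 0 of 2 WT-only peaks without Smc3 and 0 of 4 peaks of both lines without Smc3. Histone genes of a kind are near-identical copies, so the placement of their reads is uncertain.

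Gene ends were more frequent at the sites than in the rest of the list. Either annotated end of a protein-coding gene counted, since the gene table was used without strand for this. Of all autosomal WT CTCF peaks, 9.43% had their summit within 1 kb of an end. Of the 1082 sites, 165 did, or 15.2% (13.2 to 17.5), against 9.71% (9.29 to 10.2) at WT-only peaks without Smc3, 8.88% (8.61 to 9.16) at peaks of both lines with Smc3 and 9.75% (9.44 to 10.1) at peaks of both lines without it. Weighted to the sites' deciles of CTCF fold, the share was 8.97% at WT-only peaks without Smc3, 14.8% at peaks of both lines with Smc3 and 9.80% at those without it. At like CTCF fold the sites were therefore close to other peaks with Smc3 and above peaks without it. In decile 1 the share was 23.0% (18 to 28.7) at the sites, 12.7% (12.0 to 13.6) at WT-only peaks without Smc3 and 27.4% (16.9 to 40.2) at peaks of both lines with Smc3. In deciles 4 and 5 the intervals of all 4 classes overlapped.

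**Figure D4:**
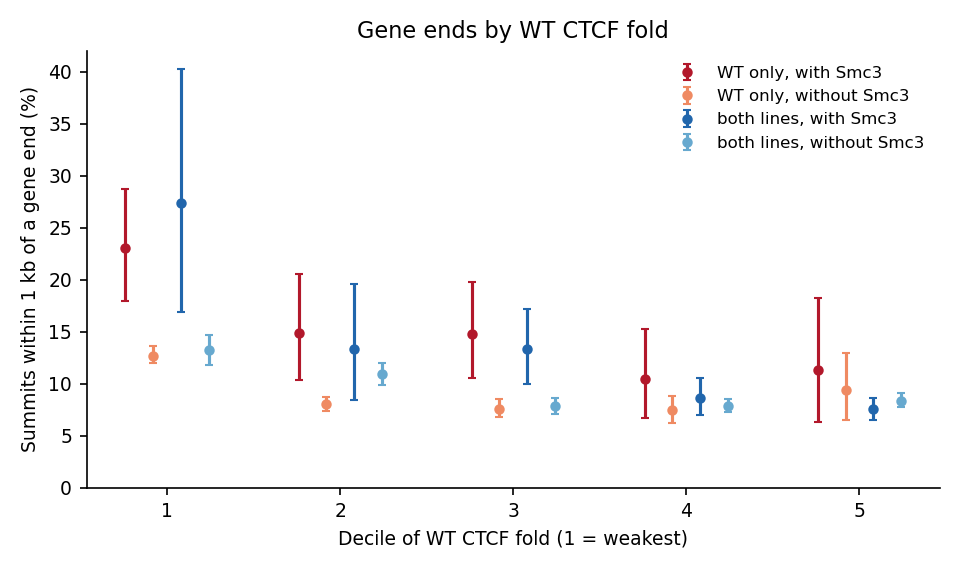
Percent of CTCF summits within 1 kb of an end of a protein-coding gene in deciles 1 to 5 of WT CTCF fold, for 4 classes of autosomal WT CTCF peaks, with 95% exact binomial intervals. In decile 1 the sites stand at 23.0% and WT-only peaks without Smc3 at 12.7%.

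Sites at a gene end had C59 Smc3 in 15 of 165 cases, or 9.09% (5.18 to 14.6). Those elsewhere had it in 10 of 917, or 1.09% (0.524 to 2.00). Gene-end sites had weaker CTCF, with a median fold of 4.47 against 5.13 elsewhere, and wider summit distances, with a median of 97.0 bp against 54.0 bp elsewhere. At annotated starts alone, which are stranded but were not used on chromosome 18, 11.7% of the sites lay within 1 kb, against 8.42% of WT-only peaks without Smc3 and 6.73% of peaks of both lines with Smc3. Summits inside a gene at any position were 47.5% at the sites, 57.6% at WT-only peaks without Smc3, 48.8% at peaks of both lines with Smc3 and 56.8% at those without it.

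Chromosome 8 held more of the sites than any other autosome. It had 122, which is 2.19% (1.82 to 2.61) of its 5567 WT CTCF peaks. Chromosome 1 had 46, or 0.733% (0.537 to 0.976), and chromosome 11 had 74, or 0.935% (0.735 to 1.17). On the other 16 autosomes the share ran from 0.946% to 1.21%. With −log10 q of at least 5 in the WT lists, chromosome 8 stood at 1.24% (0.959 to 1.57) and the other 16 autosomes between 0.365% and 0.774%. All WT-only peaks were frequent on chromosome 8 too, at 28.4% of its WT CTCF peaks. The local background under CTCF peaks, recovered from pileup and fold, differed by chromosome and by line. On chromosome 8 its median was 1.00 times that of the 16 other autosomes in C59 CTCF, 1.40 times in WT CTCF and 1.5 times in WT Smc3. On chromosome 1 the ratios were 1.36 in C59 CTCF, 1.05 in WT CTCF and 1.04 in WT Smc3. Those on chromosome 11 were 1.45 in C59 CTCF, 1.22 in WT CTCF and 1.25 in WT Smc3. Their part in the share on each chromosome was not tested.

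**Figure D5:**
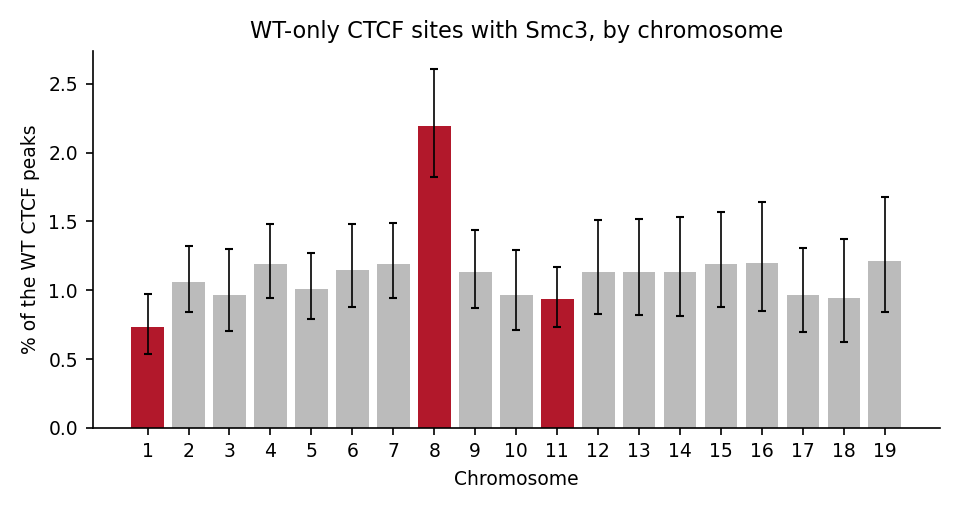
Sites as percent of the WT CTCF peaks of each autosome, with 95% exact binomial intervals. Chromosome 8 stands at 2.19%, and chromosomes 1, 8 and 11, where the local background differs from the other autosomes, are in red.

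None of the 122 sites on chromosome 8 had a C59 Smc3 peak at the CTCF peak, which allows a share of up to 2.98% (exact upper bound). On the other autosomes 25 of 960 did, or 2.60% (1.69 to 3.82), so the intervals overlapped. Median CTCF fold was 5.21 on chromosome 8 and 4.99 elsewhere, and median Smc3 fold was 3.54 on chromosome 8 and 3.78 elsewhere.

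Few sites had another close by, with 59 of 1082 within 10 kb of one. Windows of 1 Mb with a site numbered 722, of which 480 held 1 site and 82 held 3 or more, so 602 sites shared their window with another. The densest window, 133000001 to 134000000 on chromosome 4, held 10 sites among 183 WT CTCF peaks. A site at Wdtc1 had a CTCF fold of 7.11 and a Smc3 fold of 3.49 there, and the site 87 bp from an end of Ahdc1 had a CTCF fold of 3.59 and a Smc3 fold of 4.05. Of those 10 sites, 2 had C59 Smc3, at Ahdc1 with a C59 Smc3 fold of 5.46 and at Hmgn2, a nucleosome-binding protein, with 3.77. Zfhx3, a large homeobox and zinc finger factor, held the second densest group: all 7 sites of the window from 108000001 to 109000000 on chromosome 8 lay inside it, among 42 WT CTCF peaks of that window. Their CTCF folds ran from 3.17 to 7.76, their Smc3 folds from 2.90 to 4.93, and none had C59 Smc3. The next window, on chromosome 15 from 76000001 to 77000000, held 6 sites among 156 WT CTCF peaks. These included the longest site, 1016 bp inside Plec, a cytoskeletal linker, with a CTCF fold of 8.63 and a Smc3 fold of 3.85.

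Sites near genes of the listed groups were counted beside those near all genes. Over all 20661 protein-coding genes, 0.881% had a site summit within 1 kb of an end and 4.31% had one within 10 kb or inside the gene. Within 10 kb or inside, 6 of the 9 lists had shares from 7.46% to 12.8%, above that of all genes. The machinery list had 5.00%, the protocadherins 3.51% and the Hox genes 0%. Lists also differed in WT CTCF peaks of any class, which 8197 of the 20661 genes had at an end. Of those 6 lists, signalling had 41 of 67, cell cycle 26 of 46 and imprinted genes 19 of 34. Lineage factors had 20 of 47, pluripotency factors 15 of 36 and chromatin regulators 21 of 57. The shares were not adjusted for this. Among signalling ligands and receptors, 2 of 67 had one at an end, Dll1 and Vegfa, the vascular growth factor. Vegfa had a CTCF fold of 3.10 and a Smc3 fold of 19.2, and its Smc3 peak also touched another CTCF peak. Wnt3a, a Wnt ligand, Ptch1, the Hedgehog receptor, and Pdgfra, a growth factor receptor, had a site within 10 kb or inside. Of 34 imprinted genes, 2 had one at an end. Those were Peg3 and Usp29, which share that end, with a CTCF fold of 5.53 and a Smc3 fold of 3.38. Igf2, the paternally expressed growth factor next to the H19 control region, had a site 4460 bp from an end, with a CTCF fold of 5.98 and a Smc3 fold of 3.35.

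Among 47 lineage factors 1, the homeobox gene Irx3, had a site at an end, with a CTCF fold of 2.89 and a Smc3 fold of 5.00. Gsc, Tfap2a, Hand2, Gata2 and Gata3 had one within 10 kb or inside, and the strongest of those was at Gata3, with a CTCF fold of 7.42 and a Smc3 fold of 4.51. None of 36 pluripotency factors had a site at an end. Prdm14, Dppa2 and Otx2 had one within 10 kb or inside, and the site 3256 bp from an end of Dppa2, a regulator of early embryonic genes, had a CTCF fold of 6.80 and a Smc3 fold of 3.08. Otx2, the homeobox factor that marks exit from naive pluripotency, had a CTCF fold of 3.86 and a Smc3 fold of 5.58. Of 20 genes of the CTCF and cohesin machinery, only Ctcfl, the germline paralog of CTCF, had a site in that wider reach, inside the gene, with a CTCF fold of 6.54 and a Smc3 fold of 4.84.

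None of 57 chromatin regulators and 46 cell cycle genes had a site at an end, while 6 and 4 of them had one within 10 kb or inside. The chromatin regulators were Setd1b, Setdb1, Kdm5b, Brd2, Smarca4 and Dnmt1. Dnmt1, the maintenance DNA methyltransferase, had a CTCF fold of 4.56 and a Smc3 fold of 3.29 at 1533 bp from an end. The cell cycle genes were Mycn, Rb1, E2f2 and Ccnd1. The 39 Hox genes had none within 10 kb, and of 57 clustered protocadherins Pcdhb22 had a weak one at an end, with a CTCF fold of 2.26 and a Smc3 fold of 3.06. With so few genes per list, 1 site more or fewer changes each share.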

How the data were processed

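Peak lists of 4 ChIP-seq libraries (CTCF and Smc3 in C59 and WT) were used, 1 library per line and protein. The input and IgG samples were not analysed here. The labels' protocols name a Rad21 antibody in the extraction text, whereas the antibody label of each such library names Smc3, which was followed. Per the submitters' processing notes, the build was mm10 and the tools included MACS2 2.1.0.20140616 and Bowtie 0.12.8, besides deepTools 2.4.1, FastQC 0.10.1 and CASAVA. The control and threshold of peak calling and the number of reads are not given in the sources used here, so depth is unknown.

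Summit pileup is a signal that the authors deposited. Each p-value or q-value was deposited on a linear scale. The fold enrichment is a ratio of pileup to local background, deposited by the authors, and describes or ranks peaks within a list only. Local background was recovered as pileup plus 1, divided by fold, minus 1.

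Overlap needed 1 bp. Shares carry exact Clopper-Pearson 95% intervals. Weighted shares are means over deciles of fold. The overlap and distance steps and the weighting formula were checked on simulated data, and the classification as a whole was not. Python 3.11.15, numpy 2.4.6, pandas 2.3.3, scipy 1.17.1 and matplotlib 3.10.9 were used. Gene positions came from the RefSeq table of GRCm38.p6, whose chromosomes are those of mm10, without exons. No genome sequence was used, so the planned motif search around summits became a search of RefSeq promoter windows. The clustered protocadherin and other gene lists, the sites and the comparisons were chosen with earlier results of these data known. Named sites are the 10 with the highest CTCF fold, the 10 with the highest Smc3 fold, the 5 with the highest C59 Smc3 fold, the 3 longest, the 3 nearest to and the 3 farthest from C59 CTCF, the 3 of smallest overlap, the 3 densest windows of 1 Mb, sites at ends of listed genes, and the 6 promoters of highest fold. Listed genes with a site within 10 kb, histone genes, 3 genes given as examples and those of their group with a lower C59 fold were named besides.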

Additional observations from a re-analysis of the deposited data

How the results depend on the processing

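In all, 80 values of 10 results were recomputed under alternatives. Of these, 49 moved by less than their counting interval or, for counts, by no more than 1.5 times, and 31 moved further. They are values of the sites alone, so they cannot show whether a difference between classes reversed. The compared peaks were recomputed for gene ends and for chromosome 8, and not for C59 Smc3. Requiring no C59 CTCF peak within 2000 bp left 670 sites, with a median CTCF fold of 5.30, a median distance of 7166 bp, 0% on a Smc3 peak shared with another CTCF peak, 1.49% of WT CTCF on chromosome 8, 12.4% at gene ends and 1 listed gene, against 6 at first. With 500 bp the CTCF fold was 5.15, the distance 4235 bp and the shared Smc3 peaks 0.430%. With −log10 q of at least 5 there were 574 sites, with a CTCF fold of 5.47, a Smc3 fold of 4.13, 1.24% on chromosome 8, 12.2% at gene ends and 1 listed gene. With the WT CTCF list held to the length of the C59 list there were 702, with C59 Smc3 at 1.28%, a CTCF fold of 5.82, a Smc3 fold of 3.88, a distance of 3952 bp, shared Smc3 peaks at 1.14%, 12.7% at gene ends and 3 listed genes. With the Smc3 summit inside the CTCF peak, C59 Smc3 stood at 1.05%, the CTCF fold at 5.19 and shared Smc3 peaks at 0.421%. C59 Smc3 read at the WT Smc3 peak gave 4.71%. The gene-end share was 26.1% at 2500 bp, 46.5% at 10000 bp and 11.7% at starts. At 10000 bp the interval of the sites, 43.5 to 49.5, overlapped that of WT-only peaks without Smc3, 42.9 to 44.4, and under the other settings the sites stood above that class. The cause of these shifts was not tested.

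No paired analysis was possible because each line gave 1 library per protein. The planned motif windows around summits were not run, as no genome sequence was used. Motif windows holding the summit, values for sites alone on their Smc3 peak and weighting to CTCF fold or to both folds were chosen after seeing the data. With 1 library per line and protein, biological spread cannot be told apart from a difference between lines.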
